A study of Mus musculus with 8 samples.

Results

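The 10 genes described here encode glycoproteins of the extracellular matrix (ECM) and were taken by gene symbol: fibronectin (Fn1), the laminin chains Lama4, Lamb1 and Lamc1, tenascin-C (Tnc), thrombospondin-1 and thrombospondin-2 (Thbs1, Thbs2), periostin (Postn), SPARC (Sparc) and fibrillin-1 (Fbn1). All 10 were among the 12528 genes listed, and all 10 reached 1 CPM in at least 2 libraries, as did 12494 genes in all. They were measured by RNA-seq of poly(A) RNA in immortalized mouse embryonic fibroblasts (MEFs) from WT and Cav1KO littermates, the latter lacking caveolin-1, a membrane protein that shapes caveolae. Cells of both genotypes were seeded at low confluence on stiff or soft polyacrylamide gels coated with fibronectin and were collected after 24 h, which gave 2 libraries for each of 4 groups, named WT stiff, Cav1KO stiff, WT soft and Cav1KO soft. The study asked whether caveolin-1 takes part in the response of cells to the stiffness of their substrate. How many cell lines stood for each genotype is not given in the sources used here, so the genotype and a difference between lines cannot be told apart. Nothing in the labels says that the libraries of a group came from separate cultures, and the p-values then measure only the spread between these samples, which may be technical.

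Matrix glycoproteins carry the binding sites through which cells hold on to the ECM. Fibronectin dimers are pulled into fibrils by integrins at the cell surface. Laminins are trimers of an alpha, a beta and a gamma chain and build basement membranes, with Lamc1 encoding the gamma chain found in most of them. Tenascin-C, the thrombospondins, periostin and SPARC are matricellular proteins, which modulate the contact between cells and fibers more than they bear load. Fibrillin-1 forms the microfibrils that scaffold elastic fibers and store latent TGF-beta. Fibroblasts make most of these proteins and are known to change their production as they spread and contract.

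Sequencing depth was similar in the 8 libraries, at 17089836 to 19944952 reads recovered from the deposited values. A count of 0 allows up to 3 reads, and intervals and limits of this kind cover counting error only. The Cav1 transcript had 949.8 to 1157 CPM in WT libraries and 0.0523 to 0.411 CPM (1 to 8 reads) in Cav1KO libraries. Of 10 fibroblast markers, 7 were listed (Col1a1, Col1a2, Col3a1, Vim, Pdgfra, Pdgfrb and Dcn), whereas Thy1, Lum and Fap were not listed in the table. Their summed level was 7480 to 7511 CPM in WT stiff, 9484 to 9600 CPM in WT soft, 3772 to 4555 CPM in Cav1KO stiff and 10213 to 10373 CPM in Cav1KO soft libraries. None of 8 epithelial, 8 endothelial and 5 Schwann cell and neural crest markers was listed, and of 7 macrophage markers only Cd68 and Cd14 were. Their sum, mostly Cd14, was 24.9 to 40.4 CPM in WT and 92.8 to 104 CPM in Cav1KO libraries. Of 7 smooth muscle and pericyte markers, 4 were listed (Cnn1, Acta2, Tagln and Cspg4). This sum, mostly Acta2, was 1145 to 1284 CPM in WT stiff and 776.3 to 902.4 CPM in WT soft libraries. In Cav1KO libraries it was 401.2 to 419.5 CPM on stiff and 572.3 to 594.8 CPM on soft gels. On the stiff gel the mean of Tagln was 158.9 CPM for WT against 2.54 CPM for Cav1KO cells. Cspg4 and Cnn1 stood there at 18.9 and 7.36 CPM for WT, against 0 and 0.145 CPM for Cav1KO cells. Unlike the sum, Tagln was higher on stiff than on soft gels in Cav1KO cells (log2 fold change 0.56, limma, adjusted p = 0.0112). In bulk RNA of this kind, fewer cells of a type and less RNA per cell cannot be told apart, and the part of these markers in the results was not tested.

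Apart from Tnc, the genes had their highest mean level in Cav1KO cells on the soft gel, whereas the lowest was in Cav1KO stiff cells for Fn1, Lamc1, Tnc and Fbn1, in WT stiff cells for Lama4, Thbs2, Postn and Sparc, and in WT soft cells for Lamb1 and Thbs1. The summed level, of which Fn1 alone made 30.6% to 49.1%, was 2818 to 3103 CPM in WT stiff, 3848 to 4122 CPM in WT soft, 2045 to 2785 CPM in Cav1KO stiff and 7070 to 7192 CPM in Cav1KO soft libraries. Per kilobase of the longest annotated transcript, Sparc had the highest level in every group and Fn1 the next. Sparc stood at a mean of 328.1 CPM per kb in WT stiff cells and 713.3 CPM per kb in Cav1KO soft cells, and Fn1 at 170.8 and 364.5 CPM per kb in the same groups. Postn had the lowest mean level per kilobase in both WT groups, at 0.121 CPM per kb on stiff and 0.487 CPM per kb on soft gels, but reached 14.6 CPM per kb in Cav1KO stiff cells and 93.4 CPM per kb in Cav1KO soft cells. There it came next after Sparc, Fn1 and Thbs2 and ahead of Thbs1 at 87.2 CPM per kb. Tnc was the lowest in both Cav1KO groups, at 2.44 and 4.66 CPM per kb. Neighbours in this order whose libraries overlapped were Thbs2 and Lamb1 as well as Lamc1 and Tnc in WT stiff cells, Lamb1 and Lamc1 in WT soft cells, and Thbs2 and Thbs1, Lamb1 and Postn, Lama4 and Fbn1, and Fbn1 and Tnc in Cav1KO stiff cells. In Cav1KO soft cells all neighbours were apart. Some places depend on the length used. Per kilobase of merged exons, Postn (56.1 CPM per kb) stood below Thbs1 (84.0) in Cav1KO soft cells. On that measure Lama4 (1.86 CPM per kb) and not Tnc (2.23) was the lowest in Cav1KO stiff cells.

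**Figure D1:**
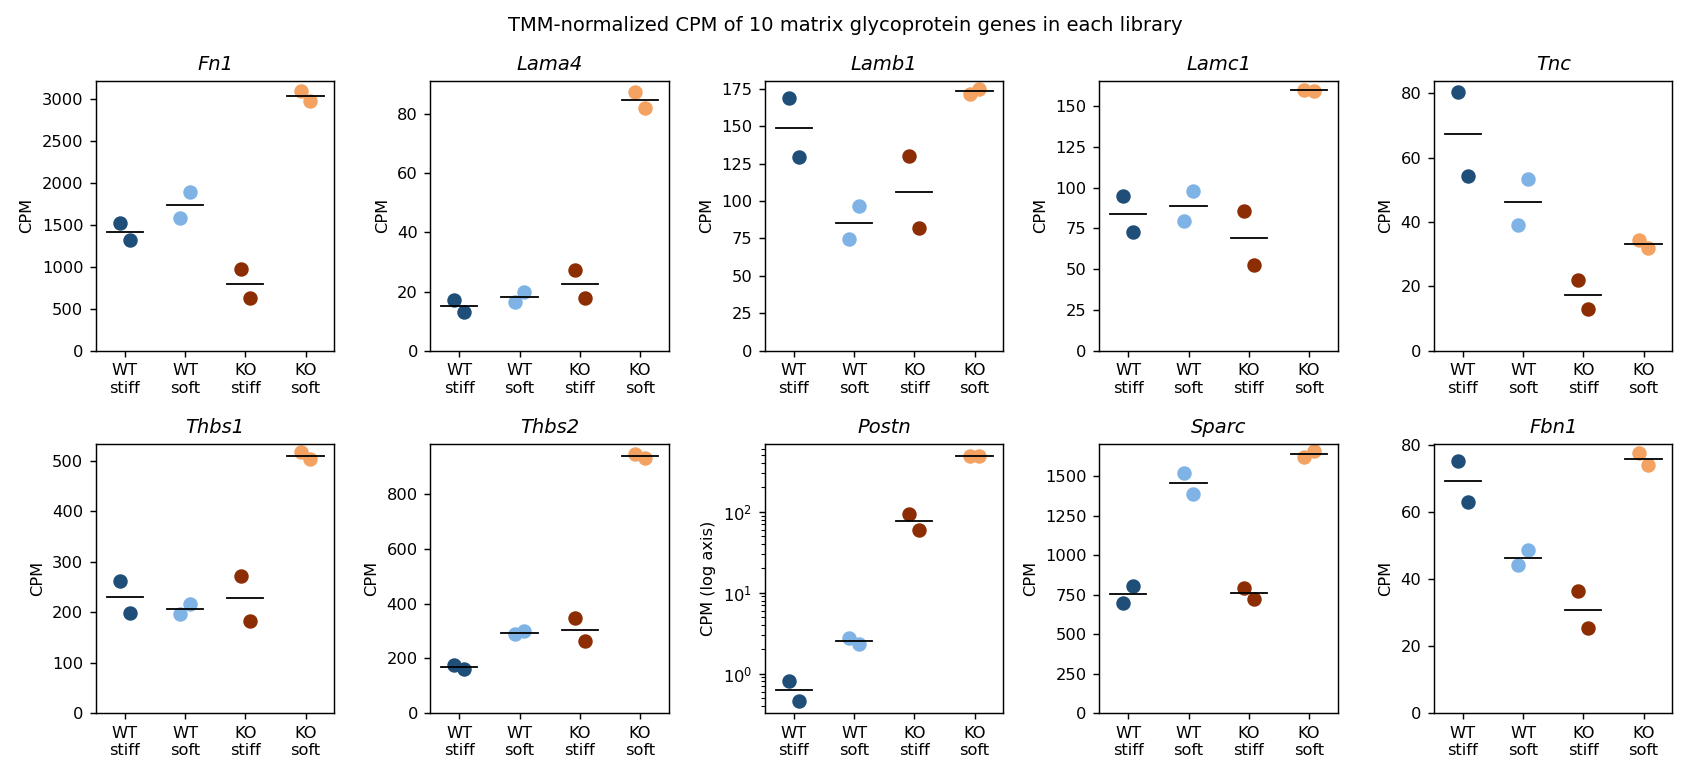
Level of each of the 10 genes in each library, as TMM-normalized CPM on the vertical axis (a log axis for Postn, linear from 0 for the others); each point is a library and each line the mean of the 2 libraries of a group, with KO standing for Cav1KO. Fn1, Lama4, Lamb1, Lamc1, Thbs1, Thbs2, Postn and Sparc were higher in both Cav1KO soft libraries than in any other library, whereas Tnc was lowest in the Cav1KO stiff libraries.

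Promoter sequences, the 250 bases before an annotated start, were at hand from RefSeq (GRCm38.p6) for 6 of the 10 genes and 8 start sites, and for Fn1, Lama4, Lamc1 and Thbs1 there was no entry. The sequences of 4 genes are shown because their levels mark the range of behaviours described below. Postn (chr3:54360857-54361106, plus strand, the start site nearest to the annotated gene) had the largest difference between genotypes. Tnc (chr4:64047016-64047265, minus strand) was the lowest per kilobase of the longest transcript in Cav1KO cells. Sparc (chr11:55420081-55420330, minus strand) had a level that followed the substrate in both genotypes. Fbn1 (chr2:125506439-125506688, minus strand) had stiffness effects of opposite signs in the genotypes. The sequences read 5′ to 3′ toward the start, and capitals mark the letters TATAAA. The Sparc and Fbn1 windows lie inside the annotated span of their gene, and that of Fbn1 also inside Gm9913, a gene on the opposite strand.
Postn: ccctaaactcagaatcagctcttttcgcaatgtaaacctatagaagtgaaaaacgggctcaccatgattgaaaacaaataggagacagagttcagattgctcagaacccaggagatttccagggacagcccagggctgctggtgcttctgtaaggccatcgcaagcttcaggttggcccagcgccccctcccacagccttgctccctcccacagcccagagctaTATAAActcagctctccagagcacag
Tnc: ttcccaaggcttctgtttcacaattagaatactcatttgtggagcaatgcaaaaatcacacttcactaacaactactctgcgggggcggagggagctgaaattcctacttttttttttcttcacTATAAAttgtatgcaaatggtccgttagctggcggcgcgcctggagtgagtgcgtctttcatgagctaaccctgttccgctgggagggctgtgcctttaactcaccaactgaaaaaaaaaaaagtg
Sparc: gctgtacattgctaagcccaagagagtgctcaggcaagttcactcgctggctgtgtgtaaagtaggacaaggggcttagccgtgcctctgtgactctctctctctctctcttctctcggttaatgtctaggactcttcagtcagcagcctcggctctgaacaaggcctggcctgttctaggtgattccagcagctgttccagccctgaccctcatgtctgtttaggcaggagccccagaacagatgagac
Fbn1: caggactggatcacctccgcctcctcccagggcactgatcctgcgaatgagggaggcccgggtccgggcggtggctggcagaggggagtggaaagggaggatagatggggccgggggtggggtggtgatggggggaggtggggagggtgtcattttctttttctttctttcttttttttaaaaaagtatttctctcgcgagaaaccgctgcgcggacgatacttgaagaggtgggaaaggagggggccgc
Both strands were searched for 4 motifs. TATAAA, the core of a TATA box, occurred in 3 of the 6 genes and in 12.4% of 32851 mouse promoter windows of the same length. The shares count single windows, whereas Postn and Tnc have 2 windows each and count if either holds the letters. In Postn it lay 26 bases before the start shown, and the window of the other start site held none. In Tnc it lay 126 bases before the start shown and 205 bases before the other. In Thbs2 it lay on the opposite strand 126 bases before the start. GGAATG, the letters bound by TEAD factors, the DNA-binding partners of YAP, occurred in none of the 6 genes and in 12.6% of all windows. TGANTCA, bound by AP-1, occurred in none of the 6 and in 6.75% of all windows, and the CArG box, bound by SRF, in none of the 6 and in 1.47% of all windows. A CArG box can hold the letters TATAAA, and no other motif lies wholly inside another, though some can share letters at their ends. A window without the letters says nothing about the rest of the gene.

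The first question was how the substrate changed these genes in each genotype. In WT cells, Lamb1 and Fbn1 were higher on the stiff gel, Thbs2, Postn and Sparc were lower, and Fn1, Lama4, Lamc1, Tnc and Thbs1 did not pass the test (limma on log2(CPM + 1), adjusted p under 0.05 over all genes tested). Thus 2 of the 10 genes were higher and 3 lower, where 22.1% of all genes tested were higher and 26.3% lower. In Cav1KO cells, all 10 genes were lower on the stiff gel and none was higher, where 28.2% of all genes tested were lower and 27.9% higher. The libraries of the stiff and soft groups did not overlap for any of the 10 in Cav1KO cells, which was so for 40.2% of all genes tested in the lower direction. The median log2 fold change (stiff minus soft) of the 10 genes was -0.17 in WT cells and -1.26 in Cav1KO cells, beside -0.02 over all genes in either genotype. The test of the difference between the stiffness effects passed for 9 of the 10 genes, all with a higher value in WT cells, as did 4.47% of all genes tested. Sparc was the exception, and the call of Postn depended on the pseudocount, as given below. These contrasts share libraries, so their values are given side by side for each gene and are not set against each other further.

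**Figure D2:**
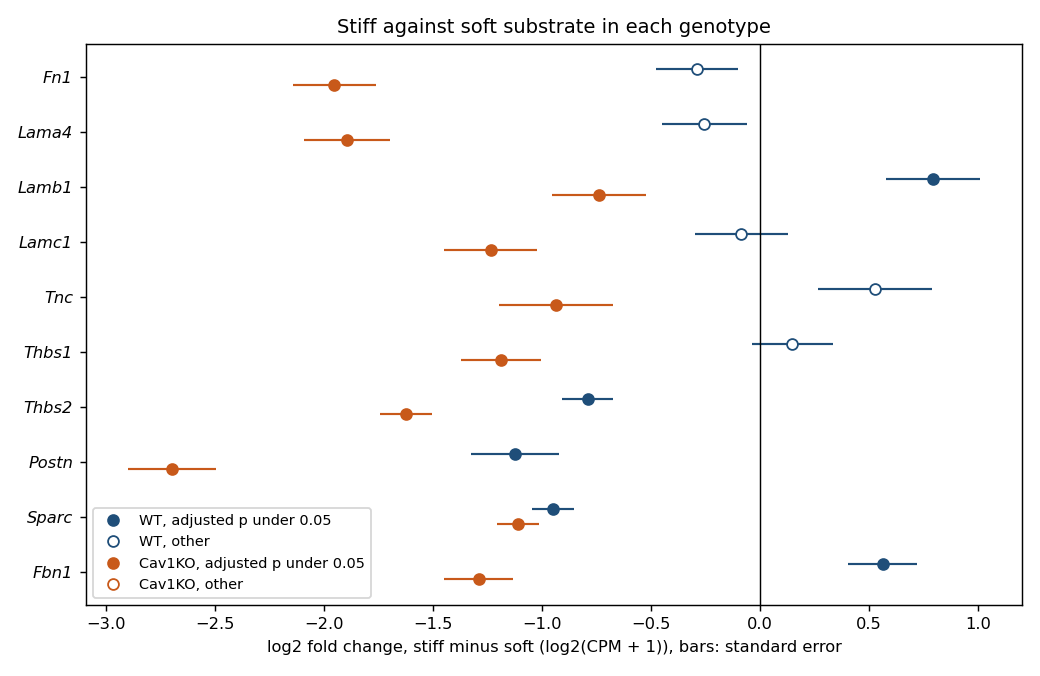
Stiffness effect on each gene, as the log2 fold change of stiff minus soft on the log2(CPM + 1) scale, in WT (blue) and Cav1KO cells (orange); filled points passed an adjusted p of 0.05, open points did not, and bars are standard errors from limma (2 libraries per group). All Cav1KO points lie below 0, between -2.70 for Postn and -0.74 for Lamb1, while the WT points lie on both sides of 0, between -1.13 for Postn and 0.79 for Lamb1.

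Fn1 (ENSMUSG00000026193, chr1:71585520-71653200, minus strand, GRCm38) encodes the main adhesive glycoprotein. It stood at 1524 and 1316 CPM in WT stiff libraries, 1582 and 1896 CPM in WT soft, 975.4 and 625.5 CPM in Cav1KO stiff, and 3089 and 2972 CPM in Cav1KO soft. The Cav1KO libraries therefore lay on either side of all WT libraries, below them on the stiff gel and above them on the soft gel. The stiffness effect was -0.29 (SE 0.19, adjusted p = 0.238) in WT cells. In Cav1KO cells it was -1.95 (SE 0.19, adjusted p = 6.92e-05), a mean level 3.79 times higher on the soft than on the stiff gel. The 2 effects differed by 1.66 (SE 0.27, adjusted p = 0.0136). After a correction for transcript length, described below, the WT effect of Fn1 was -0.45 and passed the test (adjusted p = 0.00293).

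Of the laminin chains, only Lamb1 passed the test in WT cells, and all 3 did in Cav1KO cells. Lama4 (ENSMUSG00000019846, chr10:38965515-39110188, plus strand), an alpha chain of mesenchymal and vascular basement membranes, was at 17.0 and 13.2 CPM in the WT libraries on stiff gels, 16.6 and 19.8 CPM in those on soft gels, 27.2 and 17.8 CPM in the Cav1KO libraries on stiff gels, and 87.4 and 81.9 CPM in those on soft gels. The Cav1KO soft libraries stood apart from all others. The Cav1KO stiff libraries lay above both WT stiff libraries and overlapped those of WT soft. The stiffness effect on Lama4 was -0.26 (SE 0.20, adjusted p = 0.308) in WT and -1.90 (SE 0.20, adjusted p = 9.18e-05) in Cav1KO cells, with a difference of 1.64 (adjusted p = 0.0163). Lamb1 (ENSMUSG00000002900, chr12:31265234-31329644, plus strand), a beta chain of many laminins, was at 168.6 and 129.2 CPM in the WT libraries on stiff gels, 74.3 and 96.8 CPM in those on soft gels, 129.8 and 82.0 CPM in the Cav1KO libraries on stiff gels, and 171.2 and 175.1 CPM in those on soft gels. Its direction turned between genotypes, with stiff above soft in WT and soft above stiff in Cav1KO cells. In WT cells Lamb1 was 1.74 times higher on the stiff gel (log2 fold change 0.79, SE 0.22, adjusted p = 0.0155), in Cav1KO cells 1.63 times higher on the soft gel (-0.74, adjusted p = 0.0176), and the effects differed by 1.53 (adjusted p = 0.0261). Both calls of Lamb1 within a genotype were lost when some libraries were left out: the WT call without WT stiff 1 (adjusted p = 0.103) or WT soft 1 (0.125), and the Cav1KO call without Cav1KO stiff 2 (0.0925), Cav1KO soft 1 (0.0674) or Cav1KO soft 2 (0.0752). Lamc1 (ENSMUSG00000026478, chr1:153218922-153332786, minus strand), the common gamma chain, was at 94.7 and 73.1 CPM in the WT libraries on stiff gels, 79.6 and 98.1 CPM in those on soft gels, 85.6 and 52.7 CPM in the Cav1KO libraries on stiff gels, and 160.0 and 159.5 CPM in those on soft gels. The WT groups and the Cav1KO stiff group overlapped, and the Cav1KO soft libraries lay above them. Its stiffness effect was -0.09 (SE 0.21, adjusted p = 0.763) in WT and -1.24 (SE 0.21, adjusted p = 0.00132) in Cav1KO cells, and the difference of 1.15 was close to the threshold (adjusted p = 0.0475, and 0.0549 with edgeR on the recovered reads).

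The thrombospondins bind many matrix and cell surface partners, and in WT cells Thbs2 passed the test and Thbs1 did not. Thbs1 (ENSMUSG00000040152, chr2:118111876-118127133, plus strand), widely used as a YAP-responsive gene and an activator of latent TGF-beta, was at 263.0 and 198.9 CPM in the WT libraries on stiff gels, 197.2 and 216.1 CPM in those on soft gels, 272.6 and 182.4 CPM in the Cav1KO libraries on stiff gels, and 517.1 and 502.9 CPM in those on soft gels. The 3 groups other than Cav1KO soft overlapped. The stiffness effect on Thbs1 was 0.15 (SE 0.18, adjusted p = 0.538) in WT and -1.19 (SE 0.18, adjusted p = 0.000757) in Cav1KO cells, with a difference of 1.34 (adjusted p = 0.0248). Thbs2 (ENSMUSG00000023885, chr17:14665500-14694235, minus strand), which is tied to collagen fibril assembly, was at 177.6 and 161.7 CPM in the WT libraries on stiff gels, 288.6 and 299.5 CPM in those on soft gels, 346.0 and 264.5 CPM in the Cav1KO libraries on stiff gels, and 942.7 and 928.7 CPM in those on soft gels. Its level was lower on the stiff gel in both genotypes, with a stiffness effect of -0.79 (SE 0.12, adjusted p = 0.000816) in WT and of -1.63 (adjusted p = 2.17e-05) in Cav1KO cells. The mean of Thbs2 on the soft gel was 3.07 times that on the stiff gel in Cav1KO cells, and the effects differed by 0.83 (adjusted p = 0.0261).

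Tnc (ENSMUSG00000028364, chr4:63959785-64047015, minus strand), whose product weakens adhesion to fibronectin and appears in wounds and tumour stroma, was at 80.4 and 54.2 CPM in the WT libraries on stiff gels, 39.0 and 53.3 CPM in those on soft gels, 21.9 and 12.8 CPM in the Cav1KO libraries on stiff gels, and 34.4 and 31.8 CPM in those on soft gels. The WT libraries were all above the Cav1KO libraries, and the libraries of the 2 WT groups did not overlap but came within 1 CPM of each other. The stiffness effect was 0.53 (SE 0.26, adjusted p = 0.128) in WT cells, and -0.94 (SE 0.26, adjusted p = 0.0145) in Cav1KO cells. The WT effect of Tnc passed with DESeq2 (0.55, adjusted p = 0.0368), and in limma without Cav1KO stiff 1 (adjusted p = 0.0493) or Cav1KO stiff 2 (0.0494). The Cav1KO call was lost without Cav1KO stiff 2 (adjusted p = 0.0786) or Cav1KO soft 1 (0.0744). The difference of 1.46 was close to the threshold (adjusted p = 0.0440).

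Postn (ENSMUSG00000027750, chr3:54361109-54391037, plus strand), a fasciclin protein that marks activated fibroblasts, was low in WT cells. It was there at 0.80 and 0.46 CPM (16 and 8 reads) on stiff and 2.78 and 2.31 CPM (46 and 43 reads) on soft gels. In Cav1KO cells it was at 93.3 and 59.2 CPM on stiff and 490.4 and 485.6 CPM on soft gels. No group overlapped another. The mean was 4.04 times higher on soft than on stiff gels in WT and 6.40 times higher in Cav1KO cells, with log2 fold changes of -1.13 (SE 0.20, adjusted p = 0.00218) and -2.70 (adjusted p = 2.50e-05). The pseudocount understates the fall in WT cells, and the difference of 1.57 (adjusted p = 0.0208) between the effects is overstated for that reason. With a pseudocount of 0.1 the difference was 0.82 (adjusted p = 0.169), and on the recovered reads it was 0.70 with edgeR (adjusted p = 0.412) and 0.70 with DESeq2 (adjusted p = 0.244), so the genotypes were not shown to differ in the proportional change of Postn.

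Sparc (ENSMUSG00000018593, chr11:55394500-55423183, minus strand) encodes a collagen-binding matricellular protein. It was at 701.8 and 807.6 CPM in the WT libraries on stiff gels, 1524 and 1391 CPM in those on soft gels, 796.6 and 722.7 CPM in the Cav1KO libraries on stiff gels, and 1622 and 1659 CPM in those on soft gels. The stiff libraries of both genotypes overlapped and lay below all soft libraries. The stiffness effect was -0.95 (SE 0.10, adjusted p = 1.50e-04) in WT and -1.11 (adjusted p = 4.15e-05) in Cav1KO cells, so that the mean of Sparc on the soft gel was 1.93 and 2.16 times that on the stiff gel. The difference between these effects was 0.16 (SE 0.14, adjusted p = 0.421), and only under quantile normalization did it pass (0.42, adjusted p = 0.0441).

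Fbn1 (ENSMUSG00000027204, chr2:125300594-125507993, minus strand), the microfibril gene, turned direction between genotypes as Lamb1 did. It was at 75.4 and 63.0 CPM in the WT libraries on stiff gels, 44.2 and 48.7 CPM in those on soft gels, 36.4 and 25.4 CPM in the Cav1KO libraries on stiff gels, and 77.8 and 74.2 CPM in those on soft gels. WT stiff and Cav1KO soft libraries were high, and WT soft and Cav1KO stiff libraries were low. In WT cells Fbn1 was 1.49 times higher on the stiff gel (log2 fold change 0.56, SE 0.16, adjusted p = 0.0181), a call that was lost without WT stiff 1 (adjusted p = 0.114) or WT soft 1 (0.114). In Cav1KO cells it was 2.46 times higher on the soft gel (-1.29, adjusted p = 0.000222). The effects differed by 1.85 (SE 0.22, adjusted p = 0.00489), the largest difference of the 10 as deposited. With the length correction the difference of Fbn1 was 1.27, after Postn (1.37), Lama4 (1.34) and Lamb1 (1.33). The corrected value of Postn is still overstated by the pseudocount. The value of Fbn1 is uncertain in part, since 20.1% of its exonic bases overlap Gm9913 on the opposite strand (chr2:125505089-125507881), and the kit is not stated to keep strand. Gm9913 itself was at 11 to 52 reads per library. Of the other 9 genes, Thbs1, Fn1 and Tnc share 3.43%, 2.50% and 2.26% of exonic bases with another gene, and the rest none.

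The difference between the genotypes was sensitive to single libraries. With a library left out, the lone library of a group is assumed to vary like the other groups. Of the 9 genes whose stiffness effects differed between genotypes, only Fbn1 passed without WT stiff 1, WT soft 1, Cav1KO soft 1 or Cav1KO soft 2, and 4 passed without WT soft 2. Over all genes tested, far fewer also passed in the fits just named, so the loss of calls is not particular to the 10 genes. The sign of the difference was kept for all 10 genes in each of these fits. The libraries also differed in a way that moved with transcript length. Over the 1752 genes whose longest transcript exceeds 6000 nt, the median stiffness effect was -0.34 in Cav1KO and 0.08 in WT cells and the median difference 0.37, whereas over the 1681 genes of up to 1500 nt the Cav1KO effect was 0.17 and the difference -0.26. Within the Cav1KO stiff group, the median of library 2 minus library 1 was -0.26 for the long genes and 0.16 for the short ones, and all 10 matrix glycoprotein genes were lower in library 2 there. Longest transcripts of the 10 genes run from 5223 nt (Postn) to 11971 nt (Fbn1), except for 2300 nt in Sparc. After the median deviation of genes of like length was subtracted in each library, the median difference of the 10 genes was 1.06 in place of 1.5. Of the 10, 9 passed the test with a higher value in WT cells, as did 704 of the 12494 genes tested. The correction moved the difference by over 1.5 times for Fn1 (1.66 to 1.08), Lamc1 (1.15 to 0.74), Thbs2 (0.83 to 0.53) and Sparc (0.16 to 0.32). With this correction the median Cav1KO effect was -1.06 and all 10 passed as lower on the stiff gel, as did 3647 of the 12494 genes tested. The fibroblast marker list was also lower on the stiff gel, for 7 of 7 genes tested in Cav1KO cells (median -1.52). In WT cells this was so for 6 of 7 (median -0.93). Over all genes tested, 28.2% were lower in Cav1KO and 26.3% in WT cells. The part of this list in the result was not tested.

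**Figure D3:**
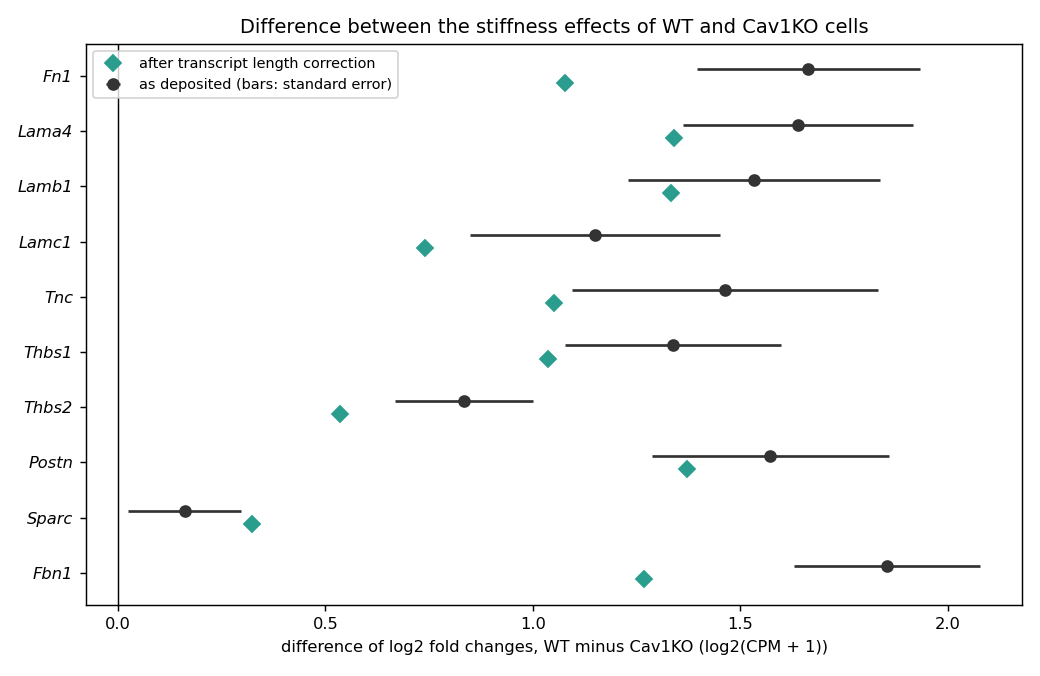
Difference between the stiffness effects of the genotypes for each gene, WT minus Cav1KO, on the log2(CPM + 1) scale; circles are the values as deposited with standard errors from limma, and diamonds the values after the transcript length correction. The values run from 0.16 for Sparc to 1.85 for Fbn1, and with the correction all but that of Sparc move closer to 0 and stay above it.

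The second question was how the genotypes differed on the same substrate. On the stiff gel, Thbs2 and Postn were higher and Fn1, Tnc and Fbn1 lower in Cav1KO than in WT cells, whereas on the soft gel 8 of the 10 genes were higher in Cav1KO cells and none passed the test in the lower direction. On stiff gels 25.0% of all genes tested were higher and 26.6% lower, and on soft gels 24.1% were higher and 29.9% lower. The median log2 fold change of the 10 genes (Cav1KO minus WT) was -0.17 on stiff and 0.93 on soft gels, beside -0.03 over all genes on either gel. Over the genes longer than 6000 nt the median genotype effect was -0.23 on stiff and 0.20 on soft gels. With the length correction, 3 of the 10 genes were higher and 3 lower on stiff gels, and 8 were higher and 1 lower on soft gels. Of the 12494 genes tested, 3414 were then higher and 3381 lower on stiff gels, and 3483 higher and 3672 lower on soft gels. Any part of these differences that stems from the lines and not from Cav1 cannot be told apart from the genotype.

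Postn had the largest difference of the 10 on both gels. Its mean rose from 0.63 ± 0.25 (SD, n = 2) CPM in WT to 76.3 ± 24.1 (SD, n = 2) CPM in Cav1KO cells on stiff gels, a ratio of 121 (log2 fold change 5.54, adjusted p = 1.68e-07). On soft gels it rose from 2.54 ± 0.33 to 488.0 ± 3.36 CPM (SD, n = 2), a ratio of 192 (log2 fold change 7.11, adjusted p = 4.44e-08), which ranked 8 among the 12494 genes tested by size. Thbs2 was the other gene that was higher in Cav1KO cells on both gels, 1.8 times on stiff (0.83, adjusted p = 0.000477) and 3.18 times on soft gels (1.67, adjusted p = 7.74e-06).

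Fn1 and Fbn1 reversed between the gels. Fn1 was lower in Cav1KO cells on stiff gels (log2 fold change -0.86, adjusted p = 0.00542) and higher on soft gels (0.81, adjusted p = 0.00691), the latter call being lost without WT soft 1 (0.68, adjusted p = 0.0587) and the value being 0.46 (adjusted p = 0.00225) with the length correction. Fbn1 was at 69.2 ± 8.76 (SD, n = 2) CPM in WT and 30.9 ± 7.74 CPM in Cav1KO cells on stiff gels, 2.24 times lower in Cav1KO cells (-1.15, adjusted p = 0.000412), and on soft gels it was higher in Cav1KO cells (0.70, adjusted p = 0.00562, and 0.35 with the length correction, adjusted p = 0.00321). Tnc was 3.88 times lower in Cav1KO cells on stiff gels (-1.91, adjusted p = 0.000396). On soft gels Tnc was lower in both Cav1KO libraries than in either WT library, but the log2 fold change of -0.45 did not pass the test (adjusted p = 0.174), except with the length correction (-0.63, adjusted p = 0.0118) or with a fit of the 2 soft groups alone (adjusted p = 0.0358).

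The laminin chains and Thbs1 differed between genotypes on the soft gel. Lama4 was 4.65 times higher in Cav1KO cells there (log2 fold change 2.16, adjusted p = 3.38e-05), and Thbs1 was 2.47 times higher (1.30, adjusted p = 0.000445). Lamb1 and Lamc1 were higher by 1.02 (adjusted p = 0.00398) and 0.85 (adjusted p = 0.00948) on the log2 scale, and the call of Lamc1 was lost without WT soft 1 (0.70, adjusted p = 0.0756). On the stiff gel none of the 4 passed the test: Lama4 had a log2 fold change of 0.52 (adjusted p = 0.0519), Lamb1 of -0.51 (adjusted p = 0.0761), Lamc1 of -0.30 (adjusted p = 0.264) and Thbs1 of -0.04 (adjusted p = 0.887). Lama4 was at the edge of the threshold there and passed with edgeR (adjusted p = 0.0442), DESeq2 (0.0106) and the length correction (0.00185). Without Cav1KO stiff 1, Lamb1 (-0.84, adjusted p = 0.00497) and Lamc1 (-0.65, adjusted p = 0.0108) also passed as lower in Cav1KO cells on the stiff gel, and with all libraries Lamb1 passed with DESeq2 (-0.48, adjusted p = 0.0201). Sparc passed on neither gel, with log2 fold changes of 0.01 (SE 0.10, adjusted p = 0.933) on stiff and 0.17 (adjusted p = 0.161) on soft gels, and on soft gels it passed under quantile normalization (0.47, adjusted p = 0.000941).

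**Figure D4:**
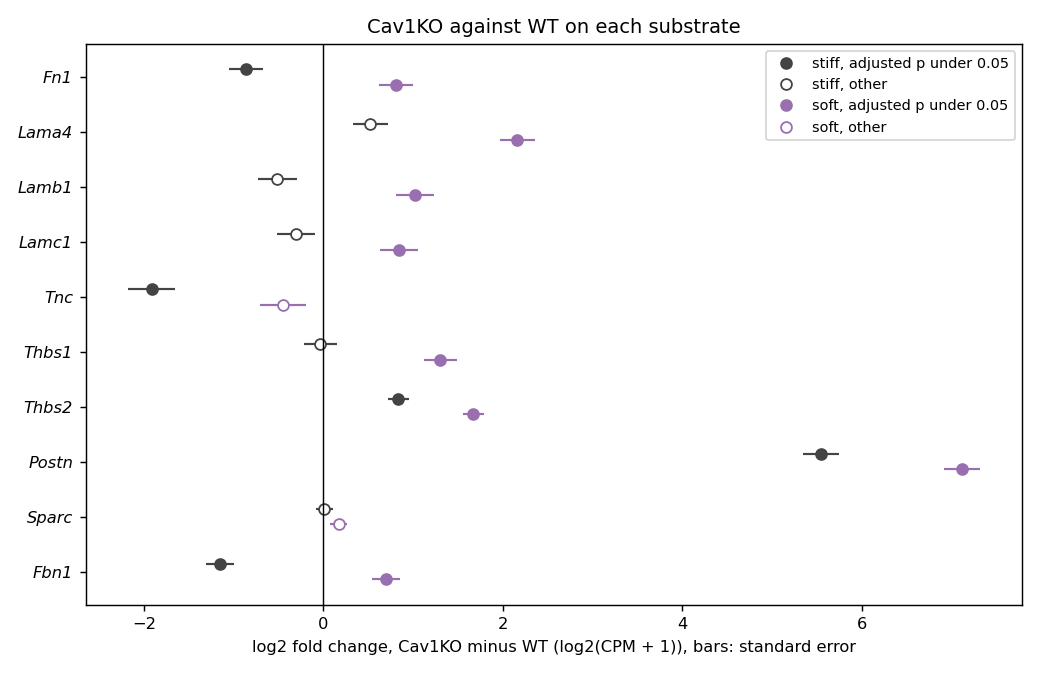
Genotype effect on each gene, as the log2 fold change of Cav1KO minus WT on the log2(CPM + 1) scale, on stiff (gray) and soft gels (purple); filled points passed an adjusted p of 0.05, open points did not, and bars are standard errors from limma (2 libraries per group). Postn lies far to the right on both gels at 5.54 and 7.11, Fn1 and Fbn1 have filled points on either side of 0, and Sparc sits near 0 on both gels.

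Ratios between chains of a family within a library do not depend on the scaling of that library. Lama4 over Lamc1, each per kilobase, was 0.227 and 0.228 in WT stiff, 0.263 and 0.254 in WT soft, 0.401 and 0.425 in Cav1KO stiff, and 0.689 and 0.647 in Cav1KO soft libraries. The alpha chain transcript thus stood higher relative to the gamma chain in every Cav1KO library than in any WT library. Lamb1 over Lamc1 was 2.35 and 2.33 in WT stiff and 2.0 and 2.05 in Cav1KO stiff libraries, against 1.23 and 1.30 in WT soft and 1.41 and 1.45 in Cav1KO soft libraries. This ratio followed the substrate, with both genotypes higher on stiff gels and no overlap between any groups. Thbs2 over Thbs1 was 0.670 and 0.807 in WT stiff libraries, the only group below 1, then 1.45 and 1.37 in WT soft, 1.26 and 1.44 in Cav1KO stiff, and 1.81 and 1.83 in Cav1KO soft libraries. The WT soft and Cav1KO stiff values overlapped. Transcript ratios do not give the makeup of secreted trimers, and these ratios were not tested.

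**Figure D5:**
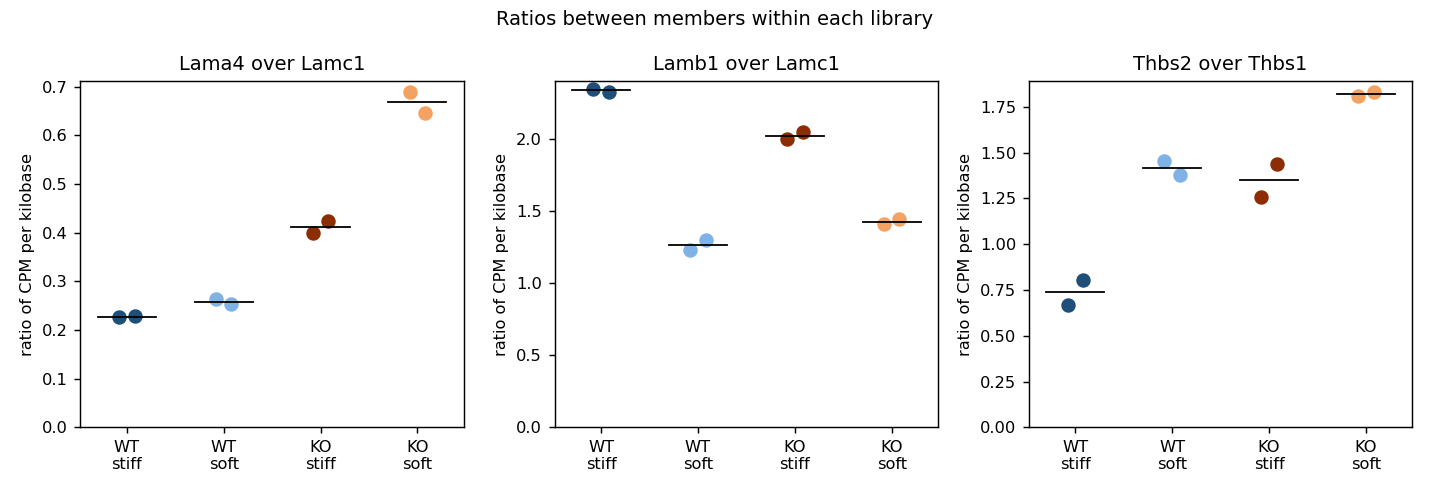
Ratio of CPM per kilobase between chains or paralogs in each library, for Lama4 over Lamc1, Lamb1 over Lamc1 and Thbs2 over Thbs1, with axes from 0; points are libraries, lines the mean of the 2 libraries of a group, and KO stands for Cav1KO. Lama4 over Lamc1 rises from 0.227 in WT stiff to a mean of 0.668 in Cav1KO soft cells, while Lamb1 over Lamc1 is higher on stiff than on soft gels in both genotypes.

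Relatives and partners of the 10 genes were taken from 9 lists of laminin chains, thrombospondins, tenascins, fasciclin proteins, SPARC family members, elastic fiber genes, basement membrane partners, other matrix glycoproteins and their receptors, which held 61 further genes tested. Of these 61, 5 were higher and 35 lower on the stiff gel in WT cells, and 2 were higher and 39 lower in Cav1KO cells, with medians of -0.51 and -0.69. Over all genes tested, 22.1% were higher and 26.3% lower in WT cells, and 27.9% higher and 28.2% lower in Cav1KO cells. The same shares stand beside the counts of single lists below. The test of the difference passed in 13 with a higher value in WT and 7 with a lower one. Among all 12494 genes tested it passed in 559 with a higher and 750 with a lower value. Closest to the 10 genes were paralogs. Lamb2, the other beta chain listed, fell on the stiff gel in both genotypes (-0.82 in WT and -1.95 in Cav1KO, adjusted p = 0.00103 and 1.55e-05), unlike Lamb1. Lama5, a widely expressed alpha chain, fell in Cav1KO cells (-1.89, adjusted p = 5.38e-05) from 18.6 to 4.34 CPM. Thbs3 fell in WT (-0.96) and in Cav1KO cells (-2.22, adjusted p = 1.01e-05), and Tgfbi, the other fasciclin gene listed, in WT (-1.42) and in Cav1KO cells (-2.14, adjusted p = 9.12e-06). All 7 laminin chains tested gave 1 higher and 2 lower in WT and 0 higher and 5 lower in Cav1KO cells, and Lamb1 was the chain that was higher.

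In the SPARC family, Fstl1 fell on the stiff gel in both genotypes (-0.58 and -0.70), as Sparc did, and Smoc1 fell in WT cells (-1.35, adjusted p = 0.000451) from 38.0 to 14.3 CPM but was at 1.15 and 1.24 CPM in Cav1KO cells. Among 14 elastic fiber and microfibril genes tested, 2 were higher and 9 lower on the stiff gel in WT cells, and 0 higher and 8 lower in Cav1KO cells. Besides Fbn1, Ltbp1, which tethers latent TGF-beta to the matrix, was the gene that rose in WT cells (0.54, adjusted p = 0.0258). Ltbp2 fell in both genotypes (-1.17 and -2.24), Ltbp4 in Cav1KO cells (-1.79, adjusted p = 0.000436), and Mfap2, a microfibril protein, in WT cells (-1.72) from 20.5 to 5.57 CPM, being at 0.110 and 0.233 CPM in Cav1KO cells. Of 7 basement membrane partners of the laminins, agrin (Agrn) and nidogen-2 (Nid2) fell on the stiff gel in both genotypes, with log2 fold changes of -1.22 and -1.90 for Agrn and of -0.70 and -1.15 for Nid2, and nephronectin (Npnt) rose in Cav1KO cells (0.52, adjusted p = 0.0118).

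Of 14 other matrix glycoproteins tested, 2 were higher and 8 lower on the stiff gel in WT cells, and 1 was higher and 11 lower in Cav1KO cells. Mgp, an inhibitor of calcification, had the largest fall in WT cells, from 110.3 to 7.68 CPM (-3.68, adjusted p = 1.82e-06), and Nov, a CCN family protein, fell from 88.8 to 9.21 CPM (-3.12). Both also fell in Cav1KO cells (-2.42 and -2.47). Wisp1, another CCN protein, rose on the stiff gel in both genotypes (0.60 and 0.85), and Slit2, a guidance cue, rose in WT cells (0.73). Among 16 receptors, 2 were higher and 6 lower on the stiff gel in WT cells, and 0 higher and 9 lower in Cav1KO cells. The 2 that rose in WT cells were the laminin-binding integrin chains Itga3 (0.72) and Itga6 (0.70). Itga11, a collagen receptor chain, fell in both genotypes (-1.10 and -2.27). Itgb3, which pairs with the alpha-v chain to bind fibronectin and vitronectin, fell in WT (-0.82, adjusted p = 0.0104) and in Cav1KO cells (-1.21, adjusted p = 0.00120), and Lrp1, an endocytic receptor that clears thrombospondins, fell in Cav1KO cells (-1.71, adjusted p = 8.46e-05) from 456.4 to 142.5 CPM.

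The genotypes also differed in the relatives, with 11 of the 61 genes higher and 36 lower in Cav1KO cells on stiff gels, and 18 higher and 26 lower on soft gels. Over all genes tested, 25.0% were higher and 26.6% lower on stiff gels, and 24.1% higher and 29.9% lower on soft gels. Chosen after their values were seen, 4 genes stood out. Lama1, an alpha chain of the early embryo, was at 0.201 CPM or less in the WT libraries and at 10.6 to 19.6 CPM in the Cav1KO libraries. The basement membrane collagens Col4a1 and Col4a2, which laminin networks are linked to, had means of 22.9 and 28.3 CPM in WT stiff cells against 0.231 and 0.0862 CPM in Cav1KO stiff cells. Fbn2, the paralog of Fbn1, had means of 27.9 CPM in WT stiff and 1.75 CPM in Cav1KO stiff cells.

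Finally, the genes most like each of the 10 over the 8 libraries were sought among 6978 genes with a mean of at least 20 CPM, by Pearson's r of log2(CPM + 1). These values are descriptive, since the 8 libraries form 4 groups of 2 and share each library's depth and length profile. Fn1 was closest to Ahnak2 (r = 0.997) and Aebp1 (0.987), a collagen-associated protein of fibroblasts. Lama4 was closest to the complement gene C3 (0.994) and Ephb4 (0.993), Lamb1 to Tmem131 (0.996) and Zeb1 (0.982), and Lamc1 to Helz (0.994) and Rest (0.990). Thbs1 was closest to Amotl1 (0.994) and Adnp (0.991), Thbs2 to Ctsz (0.997) and Ror2 (0.997), and Tnc to Epb4.1l3 (0.996) and Tsc2 (0.994). Postn was closest to the cytokine receptor gene Lifr (0.997) and to Dab2 (0.995), Sparc to Mvp (0.997) and Tapbp (0.995), and Fbn1 to vinculin (Vcl, 0.983) and calponin-2 (Cnn2, 0.982), which encode actin-binding proteins. Among the 10 genes themselves, r ran from -0.64 for Tnc and Postn to 0.97 for Lama4 and Thbs2.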

How the data were processed

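RNA-seq was run on 8 libraries, 2 for each of 4 groups assigned from the genotype and substrate in the labels. Poly(A) RNA was sequenced as single reads of 60 nt. The submitters' processing notes name CASAVA 1.8.2, cutadapt, RSEM 1.2.3 and the build GRCm38, without their roles or order. The authors deposited a signal of TMM-normalized CPM per gene, which is the reads of a gene divided by an effective library size, so libraries do not sum to a fixed total. The authors' filter on low genes and their test are not given in the sources used here. In each library 100% of the values were whole multiples of the smallest step (tolerance 0.001), which gave 17089836 to 19944952 reads.

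Genes were matched to GENCODE M21 (99.5% of 12528). Values were taken as log2(CPM + 1) and analysed in limma 3.58.1 (R 4.3.3) for the 12494 genes that reached 1 CPM in 2 or more libraries, with all 4 groups in a single fit, a mean-variance trend, two-sided tests, Benjamini-Hochberg adjustment over all genes tested and a threshold of 0.05. Fold changes on this scale understate the change of low genes. The contrasts were: stiff minus soft in each genotype, the difference between them, and Cav1KO minus WT on each substrate. The fits were tested on simulated data.

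Alternatives were edgeR 4.0.16 (quasi-likelihood) and DESeq2 1.42.0 on the recovered reads, no trend, pseudocounts of 0.1 and 5, no filter or a mean of at least 5 CPM, median centring, quantile normalization, a correction for transcript length in 20 bins, a fit of the groups compared alone, a replicate block, and leaving out each library. edgeR called 2715 genes higher and 3219 lower on stiff gels in WT cells, and 3464 higher and 3430 lower in Cav1KO cells. The 10 genes and all lists were chosen with earlier results of these data known. All 10 are named, and from each list the 2 largest rises and the 2 largest falls among genes past the threshold with a mean of at least 5 CPM in each genotype's stiffness effect. For likeness, the 2 genes with the highest r are named.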

Additional observations from a re-analysis of the deposited data

Results flagged for a closer look

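For 9 of the 10 genes, the test of the difference between the stiffness effects of WT and Cav1KO cells passed (limma, WT minus Cav1KO, log2 scale). The call of Postn was not kept on the recovered reads. Fbn1 differed by 1.85, Fn1 by 1.66 and Lama4 by 1.64. With the length correction these were 1.27, 1.08 and 1.34. That of Postn was then 1.37, a value still overstated by the pseudocount. The other laminin chains differed by 1.53 (Lamb1) and 1.15 (Lamc1), and the thrombospondins by 1.34 (Thbs1) and 0.83 (Thbs2). Tnc differed by 1.46 and Postn by 1.57. The difference of Postn depends on the pseudocount, and it did not pass with edgeR (adjusted p = 0.412) or DESeq2 (0.244). The genotypes were thus not shown to differ in the proportional change of Postn. In Lamb1 and Fbn1 the effects had opposite signs and passed the test in both genotypes with all libraries. With each library left out in turn, the WT effect ran from 0.60 to 0.98 for Lamb1 and from 0.43 to 0.69 for Fbn1. The Cav1KO effect of Lamb1 ran from -1.07 to -0.41. As given above, the WT calls of both genes and the Cav1KO call of Lamb1 were lost in some of these fits.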

How the results depend on the processing

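With 2 libraries per group, single libraries set several counts. With each library left out in turn, the number of the 10 genes called higher on stiff gels in WT cells ran from 0 to 3, that of genes with a higher stiffness effect in WT than in Cav1KO cells from 1 to 9, and that of genes lower in Cav1KO cells on stiff gels from 3 to 5. The first count was 0 without WT stiff 1 or WT soft 1 and 3, with Tnc, without either Cav1KO stiff library, and the last was 5 without Cav1KO stiff 1. On soft gels, 1 gene (Tnc) in place of 0 was lower in Cav1KO cells with the length correction, with a fit of the 2 groups compared alone, with the replicate block and length correction, and with the crossed replicate block. Signs turned only in effects that did not pass the test. With each library left out in turn, the WT effect of Lamc1 ran from -0.27 to 0.10 (0.06 without WT soft 2) and that of Thbs1 from -0.053 to 0.35, and the genotype effect on stiff gels from -0.65 to 0.040 for Lamc1, from -0.32 to 0.25 for Thbs1 (0.16 without WT stiff 1) and from -0.090 to 0.11 for Sparc (-0.06 without Cav1KO stiff 1). The last effect of Thbs1 was also 0.019 with median centring and 0.15 with the length correction, with or without the block, and that of Sparc -0.11 with the length correction, with or without the block. The cause was not tested. Of all values recomputed for the 10 genes, 990 kept direction and side of the threshold, 61 lost and 26 gained the threshold, and 13 turned sign. Many of these values could not turn sign. A fold change stays the same when the library left out is outside its contrast. It also stays the same under a change of trend or filter, a block, or a fit of the groups compared alone. Without the variance trend the difference between the stiffness effects was lost for Lamc1, Tnc and Thbs2 (adjusted p = 0.0772, 0.0693 and 0.0508). With a pseudocount of 0.1 it was lost for Lamc1, Tnc and Postn (0.0583, 0.0545 and 0.169). The Cav1KO effect of Lamb1 was lost in a fit of the 2 groups alone (0.0602), and the WT effect of Postn with a pseudocount of 5 (0.0678). Over all genes, 559 had a higher and 750 a lower stiffness effect in WT cells, against 314 and 391 without the trend and 318 and 492 with a pseudocount of 0.1. These counts over all genes also moved widely when single libraries were left out. Ranks per kilobase moved for 2, 3 and 4 of the 10 genes in WT soft, Cav1KO stiff and Cav1KO soft cells when all exons were merged, and for 0 in WT stiff cells.

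The replicate numbers share no stated day or batch. The deviations of same-numbered libraries correlated from -0.37 (WT stiff and WT soft) to 0.42 (WT stiff and Cav1KO stiff). With 2 libraries per group, these values do not show whether the numbers pair any of the samples. With the replicate number as a block, 2 genes were higher and 3 lower on stiff gels in WT cells, 10 were lower in Cav1KO cells, and 9 differed in their stiffness effect. The block changed 1 call among the 10 genes, that of Lama4 on stiff gels between genotypes (0.52, adjusted p = 0.0455). With the numbers of WT soft exchanged, an alternative chosen after seeing the data, 1675 genes had a higher and 1978 a lower stiffness effect in WT cells.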
